A study of Rattus norvegicus with 2 samples.

Results

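The genes described here are those of BMP, TGF-β and activin signalling in rat dental papilla cells, the mesenchymal cells of the tooth germ that give rise to odontoblasts. They were taken from a list of 45 gene names covering ligands, receptors, SMAD proteins, secreted or membrane antagonists and target genes, and matched to the array through the RefSeq accession of each probe. Of the 45 genes, 42 had at least 1 probe, among 15164 named genes on the array, and these 42 were read by 48 probes. No probe was matched to Gdf5, Gdf11 or Smad6, so their signals are not analysed here. Gdf11 enters only the count of motifs in upstream windows. The comparison asked which of these genes gave a higher or lower signal when melatonin was in the medium.

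The series holds 2 arrays. Primary papilla cells of rats at postnatal day 1 to 3, used at passage 3 to 4, were kept for 3 days in an odontogenic induction medium called OS, which contained 8% serum, 10 mM β-glycerophosphate, 0.2 mM ascorbic acid and 0.1 mM dexamethasone, and 1 culture condition also received 10 nM melatonin, the pineal hormone. Total RNA of each condition was labelled with Cy3 and hybridised to 1 Agilent rat array, with both arrays on 1 slide. The labels do not say how many animals or dishes an array stands for, and the dexamethasone was present in both media.

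Ligands of this family are secreted dimers that bring together type II and type I receptor kinases. BMP and most GDF receptors pass the signal to SMAD1 and SMAD5, and TGF-β and activin receptors to SMAD2 and SMAD3; each then joins SMAD4 and enters the nucleus. Noggin, chordin, gremlin and follistatin trap ligands outside the cell, and SMAD6, SMAD7 and BAMBI dampen the signal at the receptor. In the developing tooth, BMPs and TGF-βs pass between epithelium and papilla, and TGF-β1 and BMP2 are widely used to study odontoblast differentiation.

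Signals are given as the log2 processed intensity minus the 75th percentile of that array, so that 0 is the 75th percentile of the array (an intensity of 428 for OS and 329 for melatonin). A probe's brightness depends on its sequence, so signals are not compared between genes. A gene was called measured where a probe was well above background on both arrays, and its log2 ratio is the melatonin signal minus the OS signal. With 1 array per group there is no replicate error, no test and no p-value, and each ratio compares these 2 arrays only. Spots of 1 probe printed at least 8 times give the only error at hand: over 1033 such probes above background, the SD of the log2 ratio between spots had a median of 0.159, which covers spotting and scanning but not culture. In bulk RNA fewer cells of a type and less RNA per cell cannot be told apart.

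A gene is counted as higher or lower past a log2 ratio of 0.32 in either direction, which is 25% higher or 20% lower. Across the array 55.2% of 30359 probes were well above background with OS and 48.4% with melatonin, and no spot was saturated. The floor, meaning the dimmest signal still called above background, was -4.37 for OS and -3.47 for melatonin. For 13512 probes above background on neither array the median log2 ratio was 0.83, so ratios of such probes are not given as results. The 8231 measured genes had a median log2 ratio of 0.039 and an SD of 0.286.

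Of the 42 genes on the array, 33 were measured on both arrays, 3 were above background only with OS, 1 only with melatonin and 5 on neither. Of all 15164 named genes on the array, 8231 were measured, 975 were above background only with OS and 20 only with melatonin. Among the 33, 5 (15.2%) were past 0.32 upward with melatonin, beside 10.1% of all measured genes, and 2 (6.06%) were past it downward, beside 7.85%. The 5 were the receptor genes Bmpr1a and Tgfbr1, the ligand genes Tgfb3 and Gdf10 and the target gene Id2, and the 2 were Tgfb2 and Acvr2b. These shares are near those of all genes. After loess scaling 4 were past it upward and 3 downward, beside 7.96% and 9.55% of all genes. None of the 33 reached 1.5-fold, a change seen in 2.03% of all measured genes upward and 2.64% downward, or 2-fold, at 0.255% and 0.705%. Their median log2 ratio was 0.046, against 0.039 over all genes. Of the 33, 18 were above 0 and 15 below, beside 57.6% of all measured genes above 0.

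**Figure D1:**
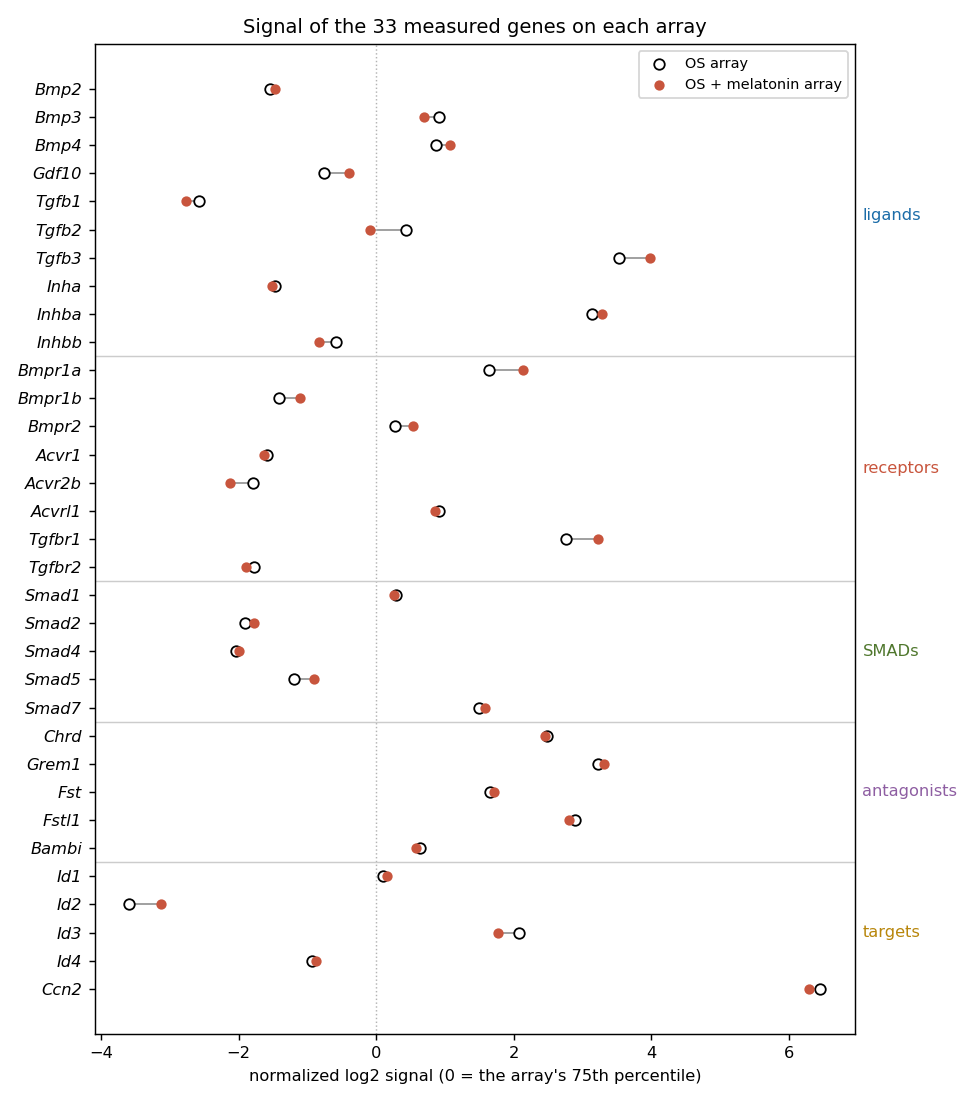
Normalized log2 signal (x axis, 0 is the 75th percentile of the array) of the 33 measured genes on the OS array (open circles) and the OS + melatonin array (filled circles), 1 array each, by role. Each pair of circles compares 1 gene between the arrays, and rows are not comparable with each other; the widest gaps are those of Tgfb2, which was lower with melatonin, and Bmpr1a, which was higher.

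Among the 3 TGF-β ligands the signals went in different directions. Tgfb3 read 3.53 on the OS array and 3.98 with melatonin, a log2 ratio of 0.46 or 1.37-fold higher, at percentile 95.6 of all measured genes. Tgfb2 read 0.44 and -0.094, a log2 ratio of -0.53 or 1.45-fold lower, at percentile 3.22. The 2 isoforms thus had ratios of opposite sign, each read by 1 spot. Another Tgfb2 probe was above background on neither array, and averaging it in turned the Tgfb2 ratio to 0.21. The Tgfb3 ratio was 0.18, inside the threshold, under normexp background correction, a model that estimates background from the spot and local signals. That setting also starts from the median spot signal in place of the processed intensity. Which of these changes moved the ratio was not tested.

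Tgfb1, an isoform stored in dentin matrix, was read by 9 usable spots at -2.58 and -2.76. Its log2 ratio was -0.18 ± 0.17 (SD between spots), with 7 of 9 spots below 0 and a range from -0.49 to 0.017. The mean is about as large as the spread between spots, and under normexp it was 0.11. Tgfb1 is made by many cells, macrophages among them. On the list of 13 macrophage and osteoclast markers 9 were measured, and 4 were past the threshold downward, beside 7.85% of all genes (Lyz2 at a log2 ratio of -2.47, Laptm5 at -0.78, Cd68 at -0.61 and C1qb at -0.34). The other 5 stood at 0.20 (Csf1r), 0.14 (Acp5), 0.072 (Aif1), 0.055 (Ctsk) and -0.069 (Cd14). C1qa and Tyrobp passed the background flag only with OS, Tyrobp at least 2.07-fold lower with melatonin, and the defining markers Ptprc and Adgre1 on neither. The list's summed signal was 108 times the 75th percentile on the OS array and 111 times it with melatonin. In such a sum the brightest probes weigh most. Here Ctsk, at 6.65 and 6.71, was by far the brightest, so the sum mostly reflects Ctsk. The part of these cells in the Tgfb1 signal was not tested.

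The ligands Bmp2, Bmp3 and Bmp4 differed little between the arrays. Bmp2, a ligand that drives bone and dentin formation, read -1.54 and -1.47, a log2 ratio of 0.067. Bmp4, an early signal of dental mesenchyme, read 0.87 and 1.07, a log2 ratio of 0.20. Bmp3, a member of the family that opposes osteogenic BMPs, read 0.92 and 0.69, a log2 ratio of -0.23 or 1.17-fold lower. None of these 3 reached the threshold.

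Gdf10, also named Bmp3b, was the gene past the threshold with repeated spots. It read -0.76 on the OS array and -0.395 with melatonin over 8 usable spots, and its log2 ratio was 0.36 ± 0.084 (SD between spots), or 1.29-fold higher. All 8 spots lay above 0, from 0.27 to 0.51, so the difference between these 2 arrays is larger than the spread between spots. Under normexp it was 0.27, inside the threshold.

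Bmp7 was above background only with melatonin, at -3.38 against -4.90 on the OS array. Its bound was at least 1.99-fold higher against the lowest signal called on the OS array, and its melatonin signal lies close to that array's floor of -3.47. All 20 genes that were above background only with melatonin had a bound past 25%, and 80.0% had one of at least 2-fold. The melatonin floor of -3.47 lies above the OS floor of -4.37, which makes such bounds large for nearly any gene. The size of the bound therefore says little about Bmp7. Gdf6 was above background only with OS, at -2.98 against -3.34, at least 1.28-fold lower with melatonin; of 975 genes above background only with OS, 9.23% had a bound past 20% lower. Bmp5 and Bmp6 passed the background flag on neither.

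The activin and inhibin subunits differed little between the arrays. Inhba, which encodes the subunit of activin A, read 3.14 and 3.28, a log2 ratio of 0.14. Inhbb, the subunit of activin B, gave log2 ratios of -0.15 and -0.32 by 2 probes, on average -0.24 or 1.18-fold lower. Inha, whose product pairs with these to form inhibins, read -1.47 and -1.51. The ratios of Inhba and Inhbb thus lay on opposite sides of 0, both within the threshold.

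**Figure D2:**
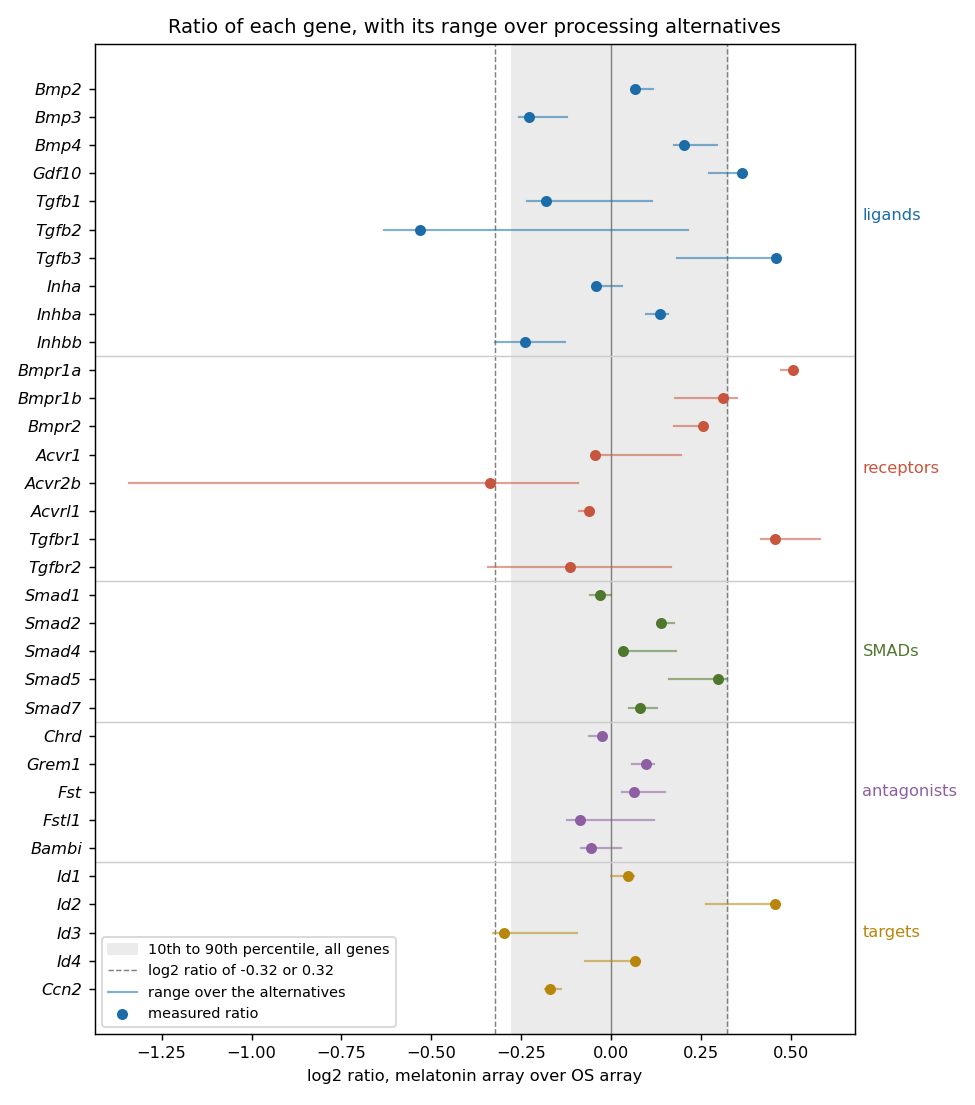
Log2 ratio of the melatonin array over the OS array (x axis) for the 33 measured genes by role, with 1 array per group; each line spans the lowest to the highest value over the processing alternatives. Bmpr1a and Tgfbr1 stay right of the dashed line at 0.32 in all of them, and most other genes lie in the grey band that holds the 10th to 90th percentile of all genes. Alternatives that only choose among probes or genes leave a gene with 1 probe unchanged.

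Type I receptors, the kinases that phosphorylate SMADs, held 2 of the 5 genes past the threshold upward. Bmpr1a, the BMP receptor ALK3, read 1.64 and 2.14, a log2 ratio of 0.50 or 1.42-fold higher, at percentile 96.7. Tgfbr1, the TGF-β receptor ALK5, read 2.76 and 3.22, a log2 ratio of 0.45 or 1.37-fold higher, at percentile 95.5. Both stayed past the threshold in all 10 processing alternatives, from 0.47 to 0.52 for Bmpr1a and from 0.42 to 0.58 for Tgfbr1. Each has 1 probe on the array, so the alternatives that only choose among probes or genes could not move them. Bmpr1b, the BMP receptor ALK6, lay just inside the threshold at -1.41 and -1.10, a log2 ratio of 0.31 or 1.24-fold higher. It was past the threshold under quantile normalization (0.35), equal medians (0.323) and the authors' values (0.345), and 0.177 under normexp.

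The other type I receptors had nearly equal signals. Acvr1, the receptor ALK2, read -1.58 and -1.63, a log2 ratio of -0.046 that was 0.19 under normexp. Acvrl1, the receptor ALK1 of endothelial cells, read 0.92 and 0.86 over 9 spots, with a log2 ratio of -0.063 ± 0.13 (SD between spots) and 3 spots above 0 against 6 below. So 3 of 5 type I receptor genes were above 0 and 2 of 5 past the threshold upward, each of the 2 by 1 spot, beside 57.6% and 10.1% of all measured genes.

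The type II receptors, which bind ligand and activate the type I kinases, showed no shared direction. Bmpr2 read 0.28 and 0.54, a log2 ratio of 0.255 or 1.19-fold higher. Tgfbr2 read -1.78 and -1.89, a log2 ratio of -0.12 that was 0.17 under normexp. Its other probe was above background on neither array, and the ratio was -0.34 where that probe was averaged in, with no filter or with the positive and significant flag. Acvr2b, an activin receptor, read -1.79 and -2.13, a log2 ratio of -0.34 or 1.26-fold lower. Its other probe, at -3.34 and -5.7, passed the background flag only with OS, and averaging it in with no filter gave -1.34. The ratio of the first was -0.092 under normexp and -0.30 under quantile normalization. Acvr2a read -4.00 and -3.72, and passed the background flag only with OS; its OS signal lies below the melatonin array's floor, so neither a fold nor a direction can be given.

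Of the co-receptors, Tgfbr3 (betaglycan) was above background on neither array. Eng, endoglin, was above it only with OS at -3.83, with -4.50 on the melatonin array and no fold to be given. Eng and Acvrl1 are known from endothelium, and of 11 endothelial markers on the array 4 were measured (Cdh5, Flt1, Erg and Sox18). Of these 4, 1 was past the threshold downward (Sox18 at -0.39), beside 7.85% of all measured genes. Pecam1 and Kdr were above background only with OS and at least 2.59-fold and 1.98-fold lower with melatonin. Tek, Tie1, Esam, Emcn and Cldn5 were above it on neither. The summed signal of the list was 7.58 times the 75th percentile with OS and 6.67 times it with melatonin, a sum in which the brightest probes weigh most. Of the 4 measured genes Erg was brightest, at 0.29 and 0.20 on average over 2 probes, a log2 ratio of -0.087. Cdh5 stood at -0.085 and Flt1 at 0.032. The part of endothelial cells in the Eng signal was not tested.

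The SMAD genes were close on both arrays. Smad1, read by 10 spots at 0.29 and 0.26, had a log2 ratio of -0.031 ± 0.12 (SD between spots), with 4 spots above 0 and 6 below. Smad5, which acts in the same arm, read -1.20 and -0.90, a log2 ratio of 0.30 or 1.23-fold higher, just inside the threshold. Smad2 read -1.90 and -1.77, a log2 ratio of 0.14, and Smad3 was above background on neither array. Smad4, the partner of all of these, read -2.04 and -2.00. Smad7, the inhibitory SMAD that TGF-β and BMP induce, read 1.5 and 1.58, a log2 ratio of 0.079. So 4 of 5 measured SMAD genes had a ratio above 0, beside 57.6% of all measured genes, and none reached the threshold.

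The antagonists, averaged by gene, had log2 ratios from -0.086 to 0.097 over 5 measured genes. By single probes they ran from -0.29 to 0.14. Grem1, which binds BMP2 and BMP4, gave log2 ratios of 0.057 and 0.14 by 2 probes, the first at 6.11 and 6.17. Chrd, chordin, read 2.48 and 2.46, and Fst, the activin trap follistatin, 1.66 and 1.72. Bambi, a pseudoreceptor, read 0.64 and 0.59, a log2 ratio of -0.056 that was 0.026 under normexp. The 2 probes of Fstl1, a follistatin-like secreted protein, gave log2 ratios of 0.12 and -0.29 and so disagreed in direction. Nog, noggin, was above background on neither array.

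Genes that SMADs switch on are a readout of the pathway, and 5 of them were measured. Id1 to Id4 encode helix-loop-helix proteins that hold back other such transcription factors and are direct BMP targets, and Ccn2 encodes the matricellular growth factor CTGF, a TGF-β target. The 250 bases upstream of their RefSeq starts (build GRCr8) follow, because these are the genes whose control by SMADs is best known, together with those of Tgfbr1 and Gdf10, the genes past the threshold whose window holds the GC-rich element, and of Bmpr1a, the member with the highest ratio. Capitals mark the SMAD box (AGAC, or GTCT on the other strand) and the GC-rich element GGCGCC, which reads the same on both strands; the motifs share no bases with each other.
Id1 (chr3:161671314-161671563, plus strand): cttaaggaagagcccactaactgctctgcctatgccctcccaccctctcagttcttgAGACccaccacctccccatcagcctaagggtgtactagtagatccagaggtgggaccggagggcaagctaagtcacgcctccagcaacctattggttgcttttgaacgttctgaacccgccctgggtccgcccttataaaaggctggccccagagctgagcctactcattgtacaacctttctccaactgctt
Id2 (chr6:47470996-47471245, minus strand): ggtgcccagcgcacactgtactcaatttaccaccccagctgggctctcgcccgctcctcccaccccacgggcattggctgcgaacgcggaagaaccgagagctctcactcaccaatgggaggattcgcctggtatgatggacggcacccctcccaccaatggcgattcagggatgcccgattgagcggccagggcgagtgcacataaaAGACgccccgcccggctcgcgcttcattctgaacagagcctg
Id3 (chr5:153656041-153656290, plus strand): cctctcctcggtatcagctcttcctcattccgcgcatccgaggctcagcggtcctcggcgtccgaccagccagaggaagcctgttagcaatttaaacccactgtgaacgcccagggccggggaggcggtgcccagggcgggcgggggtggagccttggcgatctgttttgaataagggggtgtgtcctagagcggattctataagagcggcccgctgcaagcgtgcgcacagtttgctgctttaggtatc
Id4 (chr17:16598294-16598543, minus strand): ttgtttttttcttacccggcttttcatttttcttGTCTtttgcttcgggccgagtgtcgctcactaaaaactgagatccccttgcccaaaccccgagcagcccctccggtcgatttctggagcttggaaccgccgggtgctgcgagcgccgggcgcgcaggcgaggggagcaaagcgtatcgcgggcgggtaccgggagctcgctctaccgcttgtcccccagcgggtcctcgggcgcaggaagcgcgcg
Ccn2 (chr1:22624615-22624864, minus strand): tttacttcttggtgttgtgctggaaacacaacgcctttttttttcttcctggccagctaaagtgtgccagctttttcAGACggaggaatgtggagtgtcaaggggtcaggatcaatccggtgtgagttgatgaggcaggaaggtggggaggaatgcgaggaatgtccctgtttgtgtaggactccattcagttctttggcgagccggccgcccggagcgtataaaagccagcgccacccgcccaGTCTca
Tgfbr1 (chr5:66449148-66449397, plus strand): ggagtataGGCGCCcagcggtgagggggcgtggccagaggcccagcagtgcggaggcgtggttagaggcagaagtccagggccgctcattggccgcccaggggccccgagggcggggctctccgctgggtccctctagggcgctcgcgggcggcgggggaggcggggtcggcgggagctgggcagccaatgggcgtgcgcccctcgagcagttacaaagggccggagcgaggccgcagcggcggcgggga
Gdf10 (chr16:9243262-9243511, plus strand): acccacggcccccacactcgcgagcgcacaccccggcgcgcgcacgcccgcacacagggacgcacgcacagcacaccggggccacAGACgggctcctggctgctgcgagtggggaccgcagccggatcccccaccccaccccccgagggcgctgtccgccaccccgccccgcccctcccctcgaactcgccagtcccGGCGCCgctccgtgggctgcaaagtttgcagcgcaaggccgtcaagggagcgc
Bmpr1a (chr16:9786862-9787111, minus strand): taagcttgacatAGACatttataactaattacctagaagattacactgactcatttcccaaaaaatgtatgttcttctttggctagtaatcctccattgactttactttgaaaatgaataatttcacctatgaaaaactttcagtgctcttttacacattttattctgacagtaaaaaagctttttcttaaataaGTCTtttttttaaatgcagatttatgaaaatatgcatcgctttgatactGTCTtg

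The windows of Id1, Id2 and Id4 held 1 SMAD box each, 193, 42 and 216 bases upstream of the start. The Ccn2 window held 2, at 173 and 6 bases, and that of Id3 held neither motif. GGCGCC lay 242 bases upstream of Tgfbr1, whose window had no SMAD box, and 53 bases upstream of Gdf10, with a SMAD box at 165. The Bmpr1a window held 3 SMAD boxes and no GGCGCC. A SMAD box was present in 84.0% of 33360 rat windows of that length, and in 25 of 36 genes of the pathway with an entry (69.4%). The 9 genes without an entry, which were not scanned, were Acvr1, Acvrl1, Bmp2, Bmp7, Bmpr1b, Fst, Gdf5, Gdf6 and Smad6. GGCGCC was present in 8.72% of all windows and in 10 of the 36 (27.8%), and the median GC content was 51.6% over all windows and 62.8% over the 36. These are letter matches and not sites of binding, and the elements that act on these genes may lie outside the windows.

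The 4 Id genes had ratios of different sign. Id2 read -3.59 and -3.13, a log2 ratio of 0.46 or 1.37-fold higher, with both signals near the floors. Its ratio was 0.26 after loess correction on mean signal, inside the threshold. Id3 read 2.08 and 1.78, a log2 ratio of -0.30 or 1.23-fold lower, just inside the threshold. It was -0.094 under normexp, and past the threshold under quantile normalization (-0.32), loess and the authors' values (both -0.33). Id1 read 0.11 and 0.15 over 8 spots, a log2 ratio of 0.046 ± 0.25 (SD between spots) with 4 spots on each side of 0. Id4 read -0.93 and -0.87, a log2 ratio of 0.065 that was -0.073 under normexp. The genes for these 4 related proteins thus ranged from 1.23-fold lower to 1.37-fold higher.

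Ccn2 was read by 10 spots at 6.46 and 6.29. Its log2 ratio was -0.17 ± 0.44 (SD between spots), with 8 of 10 spots below 0 and a range from -1.12 to 0.65. The SD of single spots exceeds the mean and rests largely on the lowest and the highest spot.

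**Figure D3:**
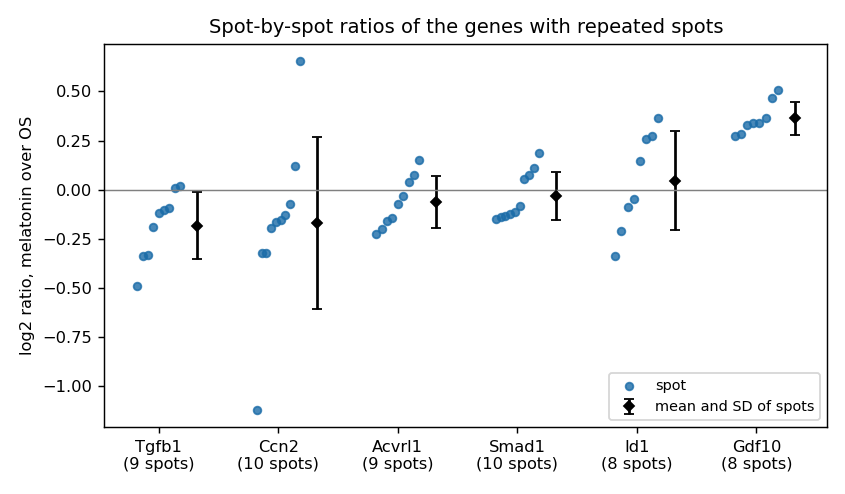
Log2 ratio of melatonin over OS (y axis) for each spot of the 6 genes with repeated spots, with their mean and SD (diamonds); spots are repeats within the same 2 arrays, not cultures. All 8 Gdf10 spots lie above 0, whereas those of Acvrl1, Smad1, Id1, Tgfb1 and Ccn2 fall on both sides.

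Other genes of the pathway were followed in 7 lists, whose counts past the threshold stand beside 10.1% of all measured genes upward and 7.85% downward. Of the 16 further ligands, 14 were on the array and none was measured on both; Gdf7 and Gdf15 passed the background flag only with OS. Of 8 further receptors and co-receptors 5 were on the array and only Rgma, a BMP co-receptor, was measured, at a log2 ratio of 0.22. Among 12 regulators of ligand storage and processing 10 were measured, with a median log2 ratio of -0.074, none past the threshold upward and 1 downward. Ltbp2, a latent TGF-β binding protein, was lower at -0.34 on average over 2 probes that read -0.64 and -0.043, and Fbn1, the fibrillin that anchors latent TGF-β and BMP complexes, stood at 0.295.

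Of 16 further antagonists 7 were measured, with a median of 0.065, 1 gene past the threshold upward and 1 downward. Bmper, a secreted modulator of BMPs, read 0.30 and 0.82 on average, a log2 ratio of 0.52 with 0.68 and 0.35 by its 2 probes. Nbl1, a relative of gremlin, read 1.34 and 0.84, a log2 ratio of -0.50. Sostdc1, an antagonist of BMP and Wnt in the tooth germ, was chosen after its value was seen and stood at 0.26 over 8 spots.

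Of 21 further SMAD regulators 12 were measured, with a median of 0.096, 1 past the threshold upward and 2 downward. Pmepa1, a TGF-β-induced gene that holds back SMAD2 and SMAD3, read 2.73 and 1.98. Its log2 ratio of -0.75, or 1.68-fold lower, lay between -0.78 and -0.73 in all 10 alternatives, by 1 spot. The alternatives that only choose among probes or genes returned the same value. Chosen after their values were seen, Tgif2, a SMAD corepressor, stood at -0.58 and Usp15, a deubiquitinase of the TGF-β receptor, at 0.54 with 0.81 and 0.28 by its 2 probes.

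All 14 TGF-β and activin target genes with a probe were measured, of 15 on the list, with a median of 0.082, 1 past the threshold upward and 2 downward. Tagln, the smooth muscle protein SM22, read 4.63 and 4.15, a log2 ratio of -0.48, and Tpm1, a tropomyosin, 4.37 and 4.79 on average, a log2 ratio of 0.425. Of 12 BMP target genes 6 were measured, with a median of -0.046, 1 past the threshold upward and 2 downward. Dlx3, a homeobox gene of tooth and bone, read -0.65 and -1.17, a log2 ratio of -0.53, and Hey1, also a Notch target, 1.89 and 1.39, a log2 ratio of -0.50. Chosen after their values were seen, the dental homeobox genes Msx1 (10 spots), Msx2 and Dlx5 stood at 0.22, 0.44 and 0.145. Of these only Msx2 was past the threshold, and Tbx3 of the same list stood at -0.24. So 3 of the 6 measured BMP target genes were above 0 and 3 below. Neither target list had a shared direction.

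**Figure D4:**
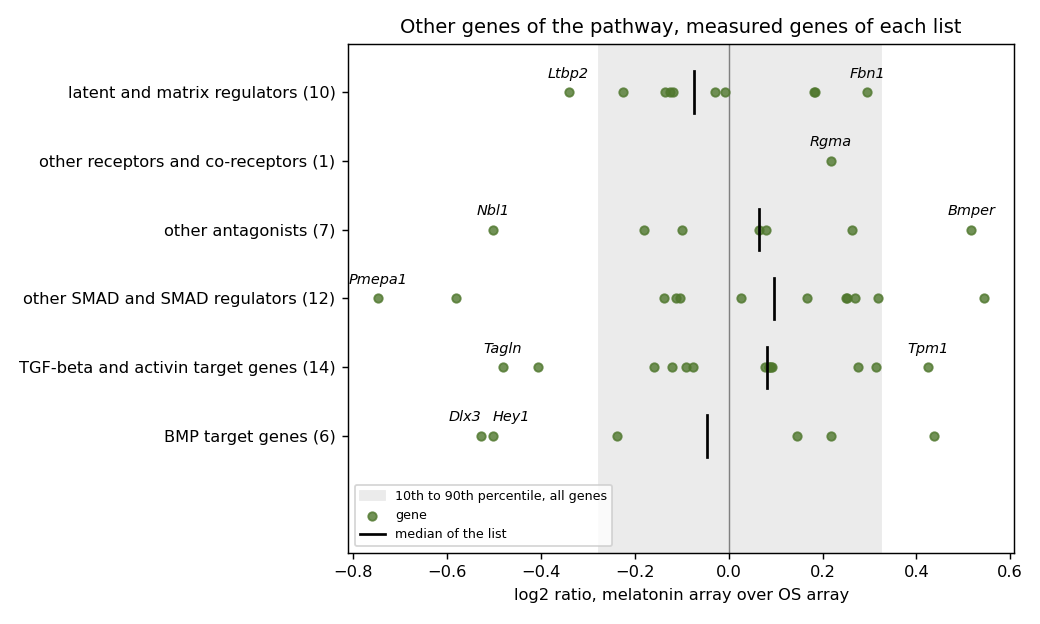
Log2 ratio of melatonin over OS (x axis) for the measured genes of 6 further pathway lists (1 point per gene, number of genes in brackets), with the list median as a black line and the 10th to 90th percentile of all genes in grey. Pmepa1 lies farthest left at -0.75, and the medians of the 5 lists with several measured genes lie between -0.074 and 0.096.

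The labelled cell type was set against its markers. All 12 dental mesenchyme markers on the array were measured, among them Msx1, Lhx8, Barx1 and Pax9. Of the 12, 9 were above 0, beside 57.6% of all measured genes. By log2 ratio Lhx6 (0.55) and Dlx1 (0.365) were past the threshold upward and Thy1 (-0.68) downward, beside 10.1% and 7.85% of all genes. The summed signal of this list was 380 times the 75th percentile with OS and 454 times it with melatonin. In that sum the brightest probes weigh most. Of 8 odontoblast markers Alpl and Ibsp were measured, while Dspp, Dmp1 and Phex were above background on neither array. Bglap, Sp7 and Mepe passed the background flag only with OS, with no fold to be given. Of 10 dental epithelium markers only Tp63 was measured, Krt14 was above background only with OS, and 8 were above it on neither. Of 9 pericyte and smooth muscle markers, cells that also express Tagln, 7 were measured, with a summed signal of 82.4 times the 75th percentile on the OS array and 94.9 times it with melatonin, a sum in which the brightest probes weigh most. Among them Myh11 (0.38), Acta2 (0.275), Cspg4 (0.18), Pdgfrb (0.14) and Mcam (0.10) were above 0, and Notch3 (-0.32) and Cnn1 (-0.27) below it. The Myh11 value averages 2 probes at 0.036 and 0.73. Rgs5 and Des passed the background flag only with OS, Des at least 1.34-fold lower with melatonin, and the part of these cells in the Tagln signal was not tested. Of 5 red cell and lymphocyte markers on the array, Hbb and Cd3d were measured, at log2 ratios of -1.73 and -0.42.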

How the data were processed

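Spots on 1-colour arrays of design 028282 (annotation build rn4) were quantified with Agilent Feature Extraction 11.0.1.1, per the file headers, and the deposited processed intensity is background-subtracted and detrended but not normalized between arrays, per the file headers. Spot flags were used as deposited. The table of the authors holds log2 values with a median of 5.10 in each column; their normalization (not given in the sources used here) is unknown.

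Outlier spots on either array were dropped, log2 signals were set against each array's 75th percentile, repeated spots were averaged by probe, and the probes of a gene that passed the background flag on both arrays were averaged. Symbols came from unversioned RefSeq accessions (assembly GRCr8; 18000 of 30359 probes, 59.3%); promoter windows came from RefSeq on the same build. A gene on 1 array has a bound against the higher of its own other signal and that array's lowest called signal. All measured genes of the list are named; of each further pathway list, those past 1.5-fold or else the 2 farthest from 0; others are marked. The genes and lists were chosen with earlier results of these data known. Alternatives were quantile, equal-median and loess scaling, normexp (limma 3.58.1, offset 50, on the median spot signal), other filters, flags and thresholds, the brightest probe, flagged spots kept and the authors' values. The gene steps were tested on simulated data. Probe sequences were not used, so cross-reaction between close relatives was not tested. The number of arrays limits the precision. Python 3.11.15 and R 4.3.3 were used.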

Additional observations from a re-analysis of the deposited data

How the results depend on the processing

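No paired analysis was possible because each group has 1 array. Of 323 member values under the 10 alternatives, 311 moved by less than the 0.159 median SD between spots, and 23 of 33 genes kept their direction in every alternative that gave a value. The other filters, the positive and significant flag and the brightest probe only choose among probes or genes. A gene with 1 probe could not move under them, so these counts overstate how far the values were tested. Tgfb2 turned to 0.212 with no filter on dim probes, where its probe at background is averaged in. The 5 genes past 0.32 upward became 3 under normexp, 11 with no filter and 0 at 1.5-fold or 2-fold. The 2 past it downward became 1 under normexp, 1 with the lower-quartile filter, 4 with no filter, 5 with the positive and significant flag, and 0 at 1.5-fold or 2-fold. With no filter 38.3% of all genes were past it upward and 10.2% downward, and with that flag 19.6% and 11.2%; these admit probes near background. The median of the members lay between 0.0253 under loess and 0.115 under normexp, where that of all genes was 0.0055 and 0.0872. Ratios above 0 numbered 18, and 24 under normexp. Why normexp moved single genes was not tested. Signals near or below the floors of -4.37 and -3.47, as for Id2, Bmp7, Eng and Acvr2a, are limited by signal over background.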

Other observations

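Of the 42 genes on the array, 6 had 2 probes (Tgfb2, Inhbb, Acvr2b, Tgfbr2, Grem1 and Fstl1). In 3 of them, Inhbb, Grem1 and Fstl1, both probes were above background on both arrays, and the signs agreed for Inhbb and Grem1. Over all genes with several measured probes the probes differed in sign in 521 of 1124 (46.4%). In the other 3 genes the second probe was at or near background, and the ratio rests on 1 spot.

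Of the 33 measured genes, 24 were read by 1 spot. Of the 7 genes past a log2 ratio of 0.32 in either direction, Gdf10 is the only one with repeated spots.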
